A study of Mus musculus with 14 samples.

Results

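Germline genes are genes of meiosis, of the piRNA pathway and of germ cell identity that somatic tissues keep off. They were described here in the cortex of mice that carry 1 knockout allele of Dnmt3a. The genes were taken by name from a list of 33, and 32 of them had a row among the 34193 gene symbols of the count table. Rhox5 was not analysed here. RNA was sequenced from the cortex of 14 C57BL/6J mice, all 8 weeks old, of which 7 were heterozygous knockout and 7 were wild-type littermates, with 4 females and 3 males of each genotype. The labels name no promoter, Cre or cell type for the knockout allele, and no animal received a treatment. The protocols name littermates but do not state outright that each library is a separate animal, so p-values measure the spread between these libraries. Replicate numbers follow the order of the series. The question was whether genes that DNA methylation is known to silence gain reads when 1 copy of the methyltransferase is lost.

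As background, many germline genes have promoters dense in CpG, the dinucleotide that DNA methyltransferases modify. In the early mouse embryo these promoters gain methylation, mainly through Dnmt3b, and Dnmt1 then copies it at each cell division. Dnmt3a, the other de novo enzyme, is known in neurons for methylation laid down after birth, much of it outside CpG. A second layer of repression comes from a Polycomb complex that holds E2F6, MGA and MAX, which bind GCGGGA-type and CACGTG sites.

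Promoter windows of 29 of the 32 genes were found by symbol in RefSeq (GRCm38.p6, 250 bases before to 50 after the start site, the first window listed for each gene). The 29 windows had a median of 17 CpG, against 7 over 27025 genes, and 28 of 29 lay above that overall median. The exception was Dpp4, with 4 CpG, and the highest value was that of Ddx4, with 38. The E-box CACGTG, which reads the same on both strands, was in 13 of 29 windows (44.8%), in 7.24% of all windows and in 11.6% of the 8625 windows with at least 17 CpG. GCGGGA, searched on both strands and allowed to share an end base with the E-box, was in 12 of 29 (41.4%), in 20.02% of all windows and in 46.7% of the CpG-rich ones. So the E-box share was above that of all windows and of the CpG-rich ones. The GCGGGA share was above that of all windows but not of the CpG-rich ones. The CpG-rich windows had a median of 26 CpG, against 17 in the germline genes, and both motifs hold a CpG. These sets are thus not matched in CpG, and shares in matched windows were not counted. The bases before the start site are printed for the genes whose reads differed most between genotypes, in both directions, with each CpG in capitals. They are Rec8 (chr14:55617916-55618165, plus strand), Mael (chr1:166238745-166238994, minus strand), Sycp3 (chr10:88459337-88459586, plus strand) and Sohlh2 (chr3:55181794-55182043, plus strand), all of 250 bases.
Rec8: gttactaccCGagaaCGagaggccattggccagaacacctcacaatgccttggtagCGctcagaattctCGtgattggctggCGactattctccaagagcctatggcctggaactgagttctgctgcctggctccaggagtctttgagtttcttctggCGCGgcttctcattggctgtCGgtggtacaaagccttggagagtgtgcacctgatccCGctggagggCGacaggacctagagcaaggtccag
Mael: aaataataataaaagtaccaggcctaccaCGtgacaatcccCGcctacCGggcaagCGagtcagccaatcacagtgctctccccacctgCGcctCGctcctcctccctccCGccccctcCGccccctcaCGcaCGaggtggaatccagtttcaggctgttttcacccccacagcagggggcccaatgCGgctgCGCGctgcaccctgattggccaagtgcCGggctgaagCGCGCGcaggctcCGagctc
Sycp3: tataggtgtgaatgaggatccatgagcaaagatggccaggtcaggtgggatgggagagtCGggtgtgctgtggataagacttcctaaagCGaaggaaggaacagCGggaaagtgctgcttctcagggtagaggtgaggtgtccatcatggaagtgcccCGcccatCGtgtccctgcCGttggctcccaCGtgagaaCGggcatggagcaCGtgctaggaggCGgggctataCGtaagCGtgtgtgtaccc
Sohlh2: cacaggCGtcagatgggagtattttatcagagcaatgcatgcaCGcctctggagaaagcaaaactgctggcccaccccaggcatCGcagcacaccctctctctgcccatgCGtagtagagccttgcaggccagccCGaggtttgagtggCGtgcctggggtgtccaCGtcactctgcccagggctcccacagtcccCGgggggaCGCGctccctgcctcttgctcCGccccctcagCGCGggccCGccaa
These stretches held 10 CpG in Rec8, 18 in Mael, 12 in Sycp3 and 14 in Sohlh2. CACGTG lay in those of Mael and Sycp3, GCGGGA or its reverse complement in those of Rec8, Mael and Sycp3, and neither in that of Sohlh2. A match is a string of letters and no evidence of binding.

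**Figure D1:**
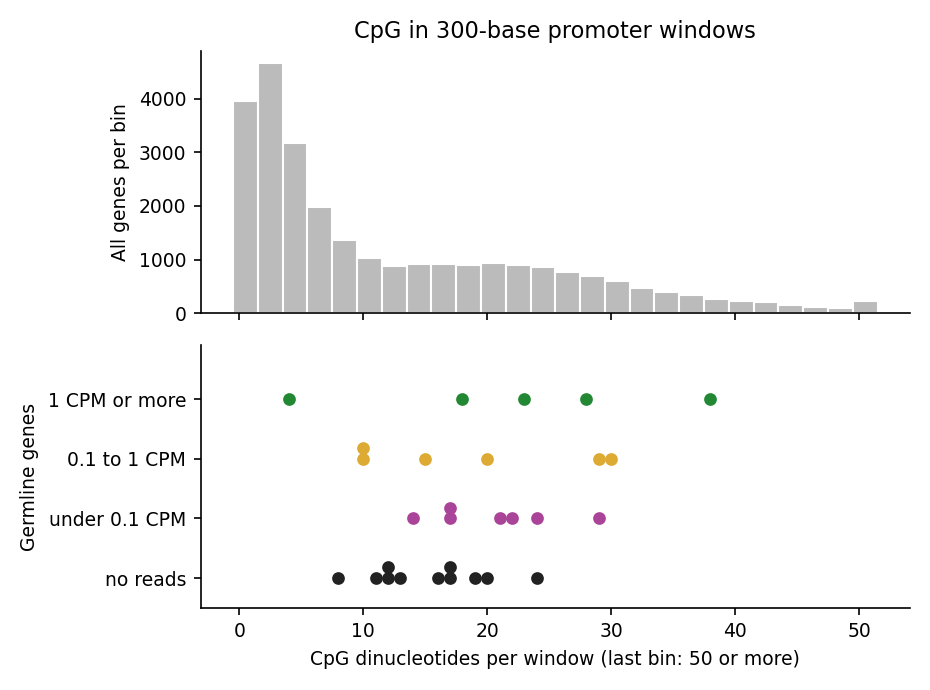
CpG dinucleotides per 300-base promoter window. The upper plot gives the number of all 27025 genes in bins of 2 CpG, and the lower plot gives 1 point for each of 29 germline genes by their level in cortex; only Dpp4, with 4 CpG, lies below the overall median of 7.

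Total counts lay between 8951835 and 14335406 per animal, and levels are counts scaled to library size after TMM normalization (CPM). Dnmt3a stood at 146 ± 14.2 CPM in wild-type animals and at 99.0 ± 11.4 CPM in heterozygotes (SD, n = 7 each), with no overlap, a log2 fold change of -0.57 (edgeR's quasi-likelihood F test, SE 0.0752, adjusted p = 0.00774) and p = 0.000583 by a two-sided exact permutation test, the smallest it can give. All markers of neurons, astrocytes, oligodendrocytes and microglia had reads. The leading number of the sample titles falls into a set A (046, 047, 048 and 139, 8 animals) and a set B (119 and 141, 6 animals), which the first principal component of the samples separated, and both hold the genotypes in equal number. The labels do not say what this title prefix marks.

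No or few reads were common: over all 34193 genes, 14540 (42.5%) had no read and a further 3320 had a mean under 0.1 CPM. By level alone, the label of silenced genes fits 18 of the 32 germline genes, those with no reads or a mean under 0.1 CPM. In 11 of them no read was counted in any animal: Asz1, Mov10l1 and Tex19.1 of the piRNA and transposon defence machinery, Hormad1 of the meiotic chromosome axis, Taf7l, Rhox2a and Zfp42 among transcription regulators, Rpl10l and Tuba3a among germ cell copies of somatic genes, and Tex101 and Dpep3 at the cell surface. A count of 0 among 84778825 wild-type counts allows a level of up to 0.0354 CPM for a gene, and among 82676583 heterozygous counts up to 0.0363 CPM (3 counts of the total, counting error only). None of these 11 was thus detected in either genotype at this depth. A further 7 genes had reads but a mean under 0.1 CPM over all 14 animals, called near silent here, and 8 had a mean of 0.1 to under 1 CPM. The other 6, Brdt, Dpp4, Dazl, Tex15, Ddx4 and Rec8, had a mean of 1 CPM or more over all 14 animals. Rec8 reached it through the heterozygotes, with means of 0.891 CPM in wild-type and 2.01 CPM in heterozygous animals. By its wild-type mean alone it would be in the class of 0.1 to under 1 CPM. Brdt, Dpp4, Dazl, Tex15 and Ddx4 had means above 1 CPM in both genotypes and go against the label. These 6 genes were also the only ones with enough counts for the test over all genes.

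Per length of exon (GENCODE M21), Brdt was highest at 2.56 CPM per kb, followed by Dazl at 0.988, Dpp4 at 0.765, Ddx4 at 0.499 and Rec8 at 0.494 CPM per kb. Ddx4 and Rec8 were not apart beyond the spread of the animals. Sycp3 came next at 0.218 CPM per kb, above Tex15 at 0.167, and the lowest gene with a read was Sycp1 at 0.00152. Counts are per gene, so they do not show which exons the reads came from.

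**Figure D2:**
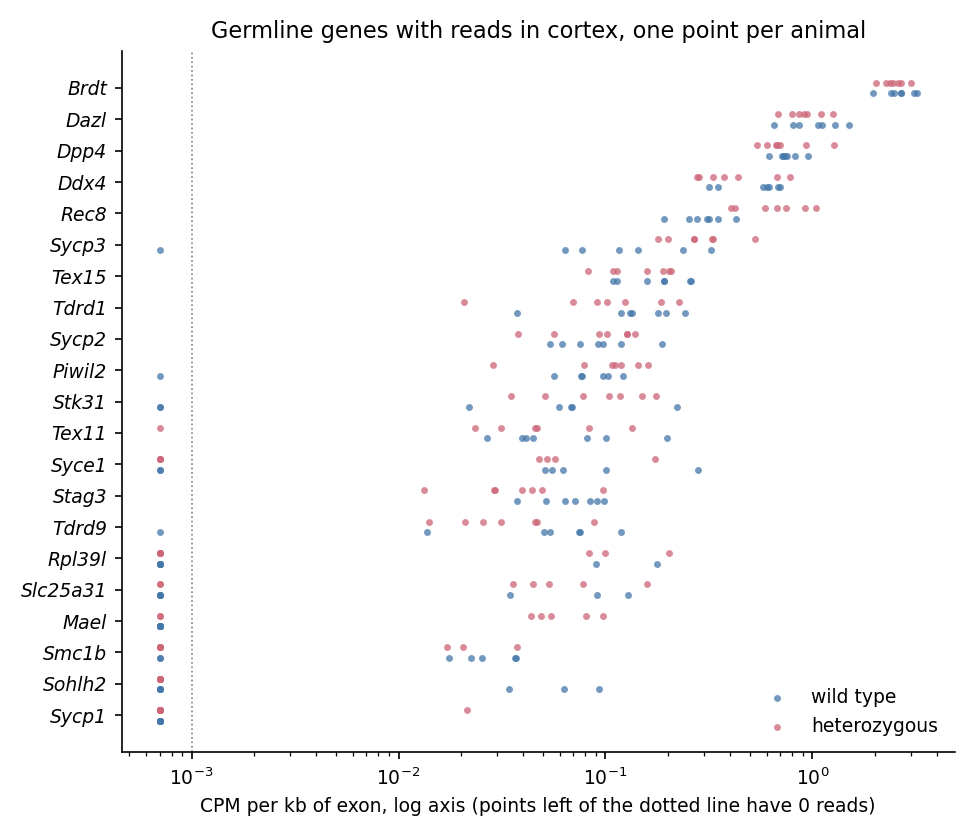
CPM per kb of exon (log axis) of the 21 germline genes with a read, 1 point per animal, with heterozygotes drawn above wild-type animals. Most genes overlap fully between the genotypes. In Rec8 the heterozygotes lie to the right, in Mael only heterozygotes have reads, and in Sohlh2 only wild-type animals have reads.

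The low counts were pooled to ask whether silent genes gained reads together. Over the 18 genes under 0.1 CPM, wild-type animals had 31 reads in all and heterozygotes had 31. Per animal the pool held 1 to 10 reads in wild-type animals and 1 to 10 in heterozygotes, with a median of 5 in each, so the genotypes overlapped over their whole range. In CPM the pool stood at 0.368 ± 0.235 and 0.362 ± 0.249 (SD, n = 7 each). The ratio of heterozygous to wild-type rates was 1.02, with an exact binomial 95% interval of 0.601 to 1.74 that covers counting error only. In set A the pool held 15 wild-type and 11 heterozygous reads, and in set B 16 and 20. All 3320 genes of the table with reads and a mean under 0.1 CPM had a ratio of 0.921 (0.894 to 0.950), and 45.3% of them had the higher mean in heterozygotes, against 4 of the 7 germline genes. A gain in the pool of more than 1.74-fold lay outside this counting interval, and a smaller one could not be told from counting error. The interval leaves out the spread between animals, so 1.74 is not a limit of detection. The mean under 0.1 CPM was taken over both genotypes, so a gene that rose far in heterozygotes would not be in the pool.

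The 8 genes of 0.1 to under 1 CPM gave the same picture with more reads. They held 264 reads in wild-type animals and 262 in heterozygotes, at a summed 3.15 ± 0.583 and 3.14 ± 1.02 CPM (SD, n = 7 each). The ratio was 1.01 (0.851 to 1.21, counting error only). Single genes of this pool went both ways, from 0.631 for Stag3 to 2.26 for Sycp3. Without Sycp3, the gene with the highest ratio, the pool gave 0.944 (0.786 to 1.13, counting error only). The mean was higher in heterozygotes in 3 of the 8, beside 43.4% of all 2738 genes at this level.

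**Figure D3:**
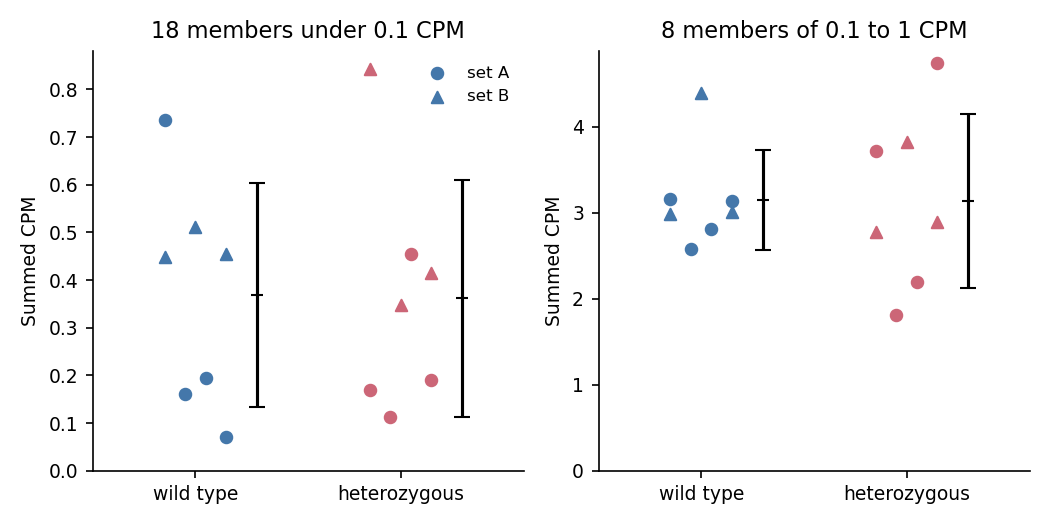
Summed CPM of the 18 germline genes under 0.1 CPM (left) and of the 8 genes of 0.1 to 1 CPM (right), 1 point per animal, circles for set A and triangles for set B, with mean and SD beside them. Means of 0.368 and 0.362 CPM on the left and of 3.15 and 3.14 CPM on the right lie within each other's SD.

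Single genes were then examined by role. Among all 13815 genes tested with sex as a term, 2 passed an adjusted p of 0.05 (0.0145%), and none of the 6 germline genes tested was among them. Their median log2 fold change was -0.11, with 2 of 6 positive, beside a median of 0.0024 over all genes.

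Rec8, the meiotic kleisin that closes the cohesin ring in place of Rad21, had the largest difference of the 6. It had 7 to 13 reads in wild-type animals (median 10) and 11 to 44 in heterozygotes (median 23). In CPM the wild-type values ran from 0.564 through a median of 0.910 to 1.26, and the heterozygous values from 1.18 through 1.97 to 3.06. The ranges met only at their ends, with 5 of 7 heterozygotes above every wild-type animal and all 7 above the wild-type median. Mean levels were 0.891 ± 0.219 and 2.01 ± 0.702 CPM (SD, n = 7 each). The log2 fold change was 1.21 (SE 0.248), and it did not pass over all genes (edgeR, sex as a term: adjusted p = 0.242).

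The call on Rec8 depended on the terms of the fit and on the tool, while the size of the change hardly moved between these fits. With the title prefix as a replicate block it passed (edgeR: 1.17, SE 0.222, adjusted p = 0.0173), among 0.405% of genes called. With terms for sex and set it also passed (edgeR: 1.21, adjusted p = 0.0498, 0.109% called), as it did in DESeq2 with sex (1.21, adjusted p = 0.0268, 0.0796% called). In the authors' deposited table its shrunken log2 fold change was 0.24 with an adjusted p of 0.0202, where 0.191% of genes were called. Without any 1 animal the change stayed between 1.05 and 1.32 and did not pass with sex as a term (adjusted p from 0.0947 to 0.596 by edgeR).

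In every one of the 6 title prefixes, each heterozygote had more Rec8 than each wild-type animal. The share of all genes with this pattern, in either direction, was not counted, so there is no background to judge it by. Rec8 levels were 0.890 ± 0.289 and 2.02 ± 0.604 CPM in set A (SD, n = 4 each) and 0.893 ± 0.138 and 1.99 ± 0.965 CPM in set B (SD, n = 3 each). A joint fit gave 1.22 for set A and 1.19 for set B, and the difference between the sets was -0.031 (SE 0.527). Set B alone called Rec8 (1.15, adjusted p = 0.0189 by edgeR), where 16.6% of genes were called, and set A alone did not (1.20, adjusted p = 0.505 by edgeR). In the joint fit, which takes the spread from all 14 animals, Rec8 did not pass in set B either (edgeR: adjusted p = 0.0722, 4.87% called). In females the change was 1.30 (SE 0.339) and in males 1.08 (SE 0.384), and their difference did not pass (0.23, SE 0.522). The mitochondrial share of set A was 0.699% for the wild-type and 0.695% for the heterozygous genotype, and that of set B was 1.82% and 1.37%. The part of this share in the Rec8 values was not tested.

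**Figure D4:**
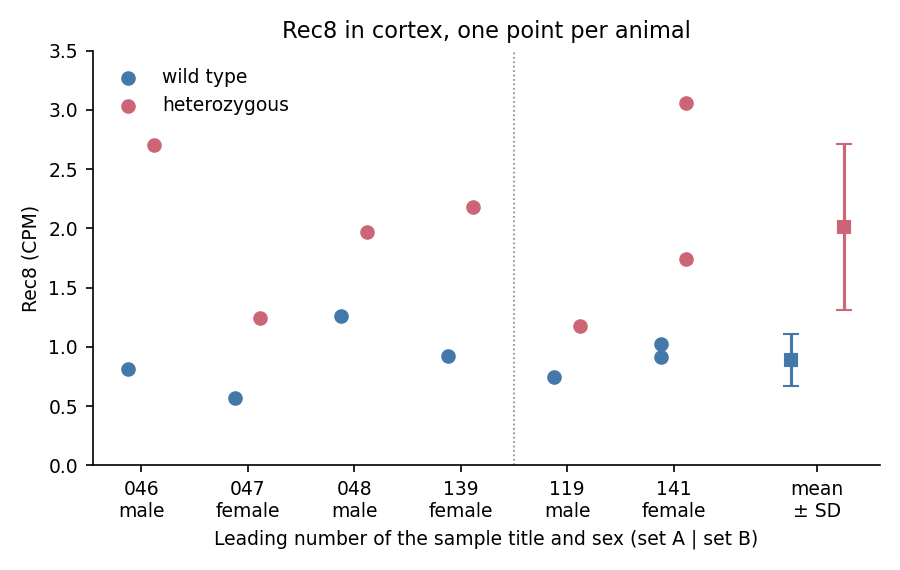
Rec8 in CPM by title prefix, each of 1 sex, 1 point per animal, with set A left and set B right of the dotted line and the mean and SD of each genotype at the end. Heterozygotes lie above wild-type animals of the same number in all 6 cases, with means of 2.01 and 0.891 CPM.

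These counts are small, and 4 wild-type and 7 heterozygous animals were over the filter level of 0.838 CPM, so Rec8 entered the test through the heterozygotes. In a fit of all 19653 genes with a read, which does not use that filter, the change was 1.21 (adjusted p = 0.151 by edgeR). When that fit had the block, Rec8 passed (edgeR: adjusted p = 0.00023, 403 genes called), as it did with the set term (edgeR: 0.000209, 242 called). Those fits were added after seeing the data. Ipo4, which lies within 1 kb on the opposite strand in GENCODE M21, was at 61.7 ± 8.56 and 62.7 ± 6.88 CPM (SD, n = 7 each). In bulk tissue more cells with Rec8 RNA and more of it per cell cannot be told apart. Of the cell type markers fitted, 10 of 10 of neurons were positive (median log2 fold change 0.12) and 0 of 8 of astrocytes (median -0.20). Oligodendrocyte markers were positive in 7 of 8 cases (median 0.16), those of microglia in 1 of 8 (-0.091), of endothelial cells and pericytes in 1 of 8 (-0.13), of meninges and fibroblasts in 2 of 8 (-0.16), and of choroid plexus and ependyma in 0 of 4 (-0.28). The part of these cell types in the Rec8 values was not tested. The astrocyte marker Agt passed with the block (edgeR: -0.52, adjusted p = 0.0234). The summed astrocyte markers lay between 1564 and 2761 CPM in wild-type and between 1513 and 2140 CPM in heterozygous animals.

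The other meiotic cohesin genes had fewer reads in heterozygotes, within counting error. Stag3, the meiotic form of the subunit that Stag1 and Stag2 supply in somatic cells, had 34 wild-type and 21 heterozygous reads, and Smc1b, the meiotic form of Smc1a, had 7 and 4. Their rate ratios were 0.631 (95% counting interval 0.348 to 1.12) and 0.584 (0.125 to 2.30), so both intervals include no change. Of the somatic relatives of the germline genes, 23 of 25 were tested and 0 passed, with a median log2 fold change of 0.023. Smc1a had 0.16 and Ddx3x, a relative of Ddx4, 0.10 (adjusted p = 0.978 by edgeR for both), and with the block 0 of these passed as well.

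In the synaptonemal complex, the scaffold between paired chromosomes, Sycp3 had the most uneven counts. Sycp3 encodes a protein of its lateral element. It had 0 to 4 reads in wild-type animals (median 2) and 3 to 7 in heterozygotes (median 4), 14 and 31 reads in all. The genotypes overlapped between 3 and 4 reads, while in CPM each heterozygote lay above each wild-type animal of its prefix in all 6 prefixes. Here too the share of all genes with this pattern was not counted. The rate ratio was 2.26 (1.17 to 4.6, counting error only). In the fit without a filter its log2 fold change was 1.12 (SE 0.492), and edgeR gave an unadjusted p of 0.0324 and an adjusted p = 0.913, so it did not pass. In set A the level went from 0.0811 ± 0.0611 to 0.371 ± 0.201 CPM (SD, n = 4 each), and in set B from 0.297 ± 0.113 to 0.389 ± 0.0454 CPM (SD, n = 3 each). The authors' deposited table gave it a p-value of 0.0467 and no adjusted value. Chpt1, which overlaps it on the opposite strand in GENCODE M21, had a log2 fold change of -0.26, the opposite direction, and did not pass with sex as a term (edgeR: adjusted p = 0.978) or with the block (0.097). It passed as lower in set B alone (edgeR: -0.40, adjusted p = 0.000177), in set B of the joint fit (adjusted p = 0.0223), and without the filter both with the block (0.00758) and with the set term (0.0262). Counting is not stated to use strand, so reads of the 2 genes cannot be told apart where they overlap.

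The counting intervals of its partners with more than 1 read include no change. Sycp2, of the same lateral element, had 48 and 49 reads (ratio 1.04, 0.686 to 1.59), Syce1 of the central element had 9 and 6 (0.681, 0.199 to 2.14), and Sycp1, the transverse filament, had 1 read in 1 heterozygote. Tex11, an X-linked gene needed for crossovers, had 22 and 17 reads (0.789, 0.394 to 1.56).

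In the piRNA pathway, Mael had reads in heterozygotes alone. Mael encodes maelstrom, a germ granule protein of transposon silencing. It had 0 reads in each of 7 wild-type animals, 2 reads in heterozygous replicates 2 and 6, 1 read in replicates 1, 3 and 5, and 0 in replicates 4 and 7, which makes 7 reads in 5 of 7 heterozygotes, in both sets and both sexes. The 95% counting interval of the rate ratio of heterozygous to wild-type animals began at 1.47 and had no upper end. In the fit without a filter edgeR gave an unadjusted p of 0.00856 and an adjusted p = 0.913, so Mael did not pass. Of the 144 genes of the table with 7 reads in all, 5 (3.47%) had none in wild-type animals.

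Sohlh2 had reads in wild-type animals alone. It encodes a basic helix-loop-helix factor of early germ cells, and it had 3, 2 and 1 reads in wild-type replicates 2, 5 and 3, 0 in the other wild-type animals and 0 in each heterozygote. The counting interval of its rate ratio ran from 0 to 0.868. In the fit without a filter edgeR gave an unadjusted p of 0.0195 and an adjusted p = 0.913. Of the 160 genes with 6 reads in all, 3 (1.88%) had none in heterozygotes. In total 4 of the 21 germline genes with a read had an unadjusted p under 0.05 in the fit without a filter, Rec8, Mael and Sycp3 upward and Sohlh2 downward, beside 3.9% of all 19653 genes. When that fit also blocked on prefix it was 2 of 21 (9.52%), Rec8 and Mael, beside 11.2% of all genes. With terms for sex and set it was 3 of 21 (14.3%), without Sycp3, beside 9.35%. A share above that of all genes therefore depended on the terms of the fit. Over the 21 genes 10 were positive and 11 negative.

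**Figure D5:**
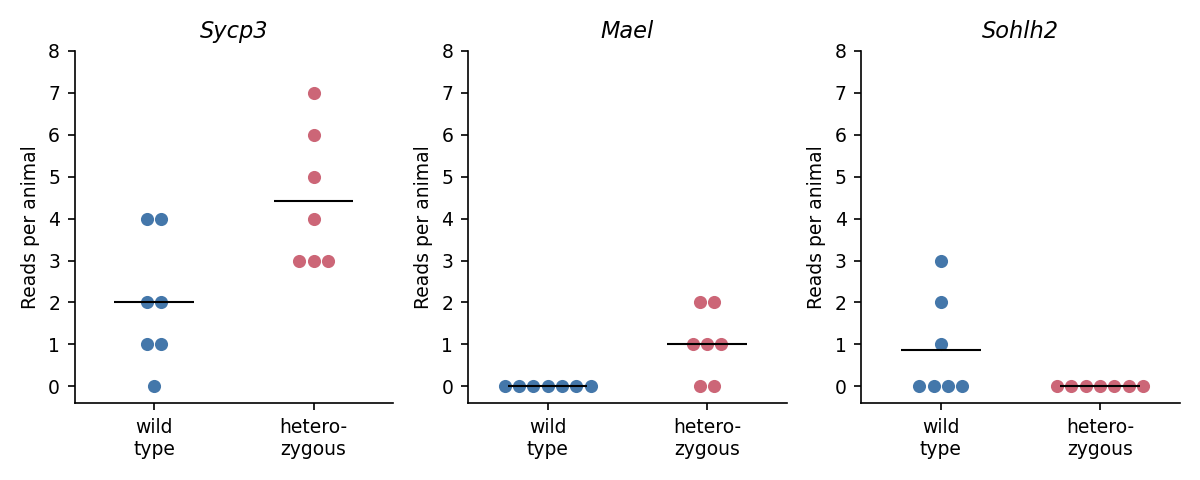
Reads per animal of Sycp3, Mael and Sohlh2, 1 point per animal with a line at the mean. Mael has 7 reads in heterozygotes and 0 in wild-type animals, and Sohlh2 has 6 in wild-type animals and 0 in heterozygotes.

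The rest of the piRNA group showed no common direction. Ddx4, the germ cell RNA helicase also called vasa, had 0.956 to 2.09 CPM in wild-type animals (median 1.82) and 0.834 to 2.36 CPM in heterozygotes (median 1.13). Its log2 fold change was -0.28 (edgeR: SE 0.262, adjusted p = 0.978), with overlapping ranges. Tex15, which acts in piRNA-guided silencing, had 1.05 to 2.50 CPM (median 1.84) and 0.792 to 1.99 CPM (median 1.52), with -0.23 (edgeR: SE 0.250, adjusted p = 0.978). Piwil2, a PIWI protein that binds piRNAs, had 35 and 46 reads, and Stk31, a tudor domain protein of germ cells, 16 and 28. Tdrd1 and Tdrd9, further tudor domain proteins of this pathway, had 70 and 53, and 25 and 17. The counting intervals of the ratios of all 4 include 1, the nearest being Stk31 at 1.79 (0.934 to 3.54).

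Among regulators of germ cell RNA and transcription, Brdt and Dazl overlapped between the genotypes. Brdt, the bromodomain protein of the testis, had 10.1 to 16.3 CPM in wild-type animals (median 13.6) and 10.4 to 15.4 CPM in heterozygotes (median 12.5). Its log2 fold change was -0.085 (edgeR: SE 0.107, adjusted p = 0.978). Dazl, an RNA-binding protein needed for germ cell development, had 2.50 to 5.74 CPM (median 4.06) and 2.62 to 4.80 CPM (median 3.49), with -0.13 (edgeR: SE 0.161, adjusted p = 0.978). In both genes the ranges overlapped over most of their width. Brdt had 0.066 in set A and -0.27 in set B in the joint fit, a difference of -0.34 (SE 0.181) that did not pass (adjusted p = 0.383 by edgeR).

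Among germ cell copies of somatic genes, Slc25a31, the testis form of the mitochondrial ADP/ATP carrier, had 6 wild-type and 9 heterozygous reads, and Rpl39l, a copy of a ribosomal protein gene, 3 and 4. Rpl39l, Rpl10l and Tuba3a have close relatives, and how reads with several matches were counted is not stated by the labels or the file, so their counts are uncertain. At the cell surface Dpp4, a peptidase known from many tissues, had 3.92 to 6.01 CPM (median 4.68) and 3.4 to 8.07 CPM (median 4.24), with a log2 fold change of 0.026 (edgeR: SE 0.169, adjusted p = 0.993). Its highest value was that of 1 heterozygous female, replicate 6, without which the change was -0.14.

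The genes that hold germline promoters silent were tested in 26 of 27 cases. Of these, 18 were positive, the median log2 fold change was 0.022, and Dnmt3a was the 1 that passed, downward, with sex or with the block. Ehmt2, a histone H3K9 methyltransferase, had -0.10 (edgeR: SE 0.0593, adjusted p = 0.978). A further list of 49 genes of meiosis, the piRNA pathway and early germ cells had 48 rows. No read was counted for 16 of them, beside 42.5% of all genes. A further 11 with reads were under 0.1 CPM, and 10 were tested. Of those 10, 7 were positive, the median was 0.049 and 0 passed with sex or with the block. The smallest p-values were those of Mei1, a meiosis gene (-0.32, SE 0.201), and Dnd1, an RNA-binding protein of germ cells (0.43, SE 0.298), both with an adjusted p of 0.978 by edgeR. The genes of this list under 0.1 CPM held 24 wild-type and 34 heterozygous reads, a ratio of 1.45 (0.833 to 2.55, counting error only) whose interval includes both 1 and the 0.921 of all genes at this level.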

How the data were processed

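The authors deposited 1 table with raw, whole-number counts per gene symbol for 14 animals. Per the submitters' processing notes, Trim Galore, Bowtie, STAR and bedtools were used on the mm9 build, with no versions or roles; strand use in counting is not stated there. The libraries were made with a directional kit, per the labels' protocols. The deposited table also holds the authors' comparison of genotypes as a shrunken log2 fold change, its test statistic (a score) and p-values, raw and adjusted.

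Counts were tested with edgeR 4.0.16 (R 4.3.3, limma 3.58.1): filterByExpr by genotype (10 counts), TMM, robust quasi-likelihood F test, sex as a term, Benjamini-Hochberg over all genes, threshold 0.05. DESeq2 1.42.0, other normalization, no filter, a set term, the title prefix as a replicate block, each set alone and leaving out each animal were alternatives. The fit was tested on simulated data that held no difference between the sets, so that test does not cover the set split of these animals. Deviations from genotype means of 9 pairs with the same prefix correlated at 0.2 to 0.517. Pairs of different prefixes in the same set reached into this range, with 0.251 for wild-type replicate 1 and heterozygous replicate 2. Sex and set were left in these deviations, so they do not show that the prefix itself pairs animals. No columns were identical, and pairs within a genotype differed by more than resampling of the same library (lowest chi-square per degree of freedom 2.67). Pairs across genotypes were not compared in this way. These values do not show that each library came from a separate animal.

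Members, lists and sets were chosen with earlier results of these data known, so no p-value is given for a pool or list. Genes outside the list were named by a rule: calls, and the 2 smallest p-values per list. CPM per kb used exon lengths of GENCODE M21, another build than that of the counts.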

Additional observations from a re-analysis of the deposited data

Results flagged for a closer look

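In wild-type replicate 6, a female of set B, the 8 germline genes of 0.1 to 1 CPM summed to 4.39 CPM, far above the other wild-type animals (2.58 to 3.16 CPM). This was 1 of 16 groups of 7 animals examined, and chance flags about 1 in 20.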

How the results depend on the processing

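The ratio of pooled reads of the 18 genes under 0.1 CPM stayed within the spread of the animals under all alternatives run, from 0.791 without Mael (chosen after seeing the data) to 1.36 for genes under 0.05 CPM, and between 0.808 and 1.27 without 1 animal. The count over all genes, 2 with sex as a term, was 11 with DESeq2, 15 with the set term, 56 with the title prefix as a replicate block, 0 in set A alone, 2304 in set B alone and 1 to 4 without 1 animal. Without the low-count filter it was 403 with the replicate block and 242 with the set term, both added after seeing the data. The cause of these differences was not tested. The count of germline genes went from 0 to 1, Rec8 in each case, with DESeq2, the set term, the replicate block, set B alone and both added fits, and was 0 without any 1 animal; the block changed no other call on a germline gene. Directions reversed for uncalled genes: in set A alone Dazl had 0.021, Brdt 0.068 and Dpp4 -0.073, in set B alone Tex15 had 0.15, and Dpp4 ran from -0.14 to 0.098 without 1 animal, being -0.04, -0.0012, -0.0072 and -0.14 without wild-type replicates 1 and 6 and heterozygous replicates 3 and 6. Depth limits the 15 germline genes with reads that were not tested: they held 295 wild-type and 293 heterozygous reads.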

Other observations

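Genes of spermatids, the haploid cells that follow meiosis, ranged from no reads to expressed in cortex. Of 26 listed, 12 had no read in any animal, beside 42.5% of all genes, and 4 more were under 0.1 CPM. Odf2 stood at 33.9 ± 2.33 CPM in wild-type and 35.3 ± 2.62 CPM in heterozygous animals (SD, n = 7 each). Those under 0.1 CPM held 12 wild-type and 13 heterozygous reads. Of the 3 tested, 0 passed; Zpbp, an acrosome gene, was at -0.23 on the log2 scale (SE 0.197) and Odf2, a gene of sperm tail fibres that also acts at centrosomes, 0.057 (SE 0.0618), both with an adjusted p of 0.978 by edgeR. In the list of other germline genes, 3 that were chosen after their values were seen had fewer reads in heterozygotes: Pld6, which acts in piRNA production, had 67 and 37 reads, Nanos2, a regulator of male germ cells, 52 and 26, and Syce2 of the synaptonemal complex 77 and 49. Their unadjusted p-values in the fit without a filter were 0.0101, 0.0274 and 0.048 by edgeR, where 3.9% of all 19653 genes were under 0.05. In that fit Mael, with a smaller unadjusted p of 0.00856, had an adjusted p of 0.913 by edgeR, so none of the 3 passed. The list had 48 rows, 16 of them without a read, and other genes had more reads in heterozygotes, such as Dnd1 with 69 and 89.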
